A study of Drosophila melanogaster with 30 samples.

Results

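Activated flies of the line MB477 were compared with activated flies without CsChrimson, which had received the same light protocol. The comparison rests on 6 of the 30 libraries of a nuclear RNA-seq study of Drosophila melanogaster, taken by their titles, 3 in each group. It covers all 11457 genes, of 17559 in the count table, that passed a filter on low counts. Both groups carry the strain label CS10 and were given 5 min of activation and then 10 min of rest. The MB477 flies are taken from the titles to carry CsChrimson, a channel opened by red light, and the other flies lack it. The line of the flies without CsChrimson is not named, and the sources used here give neither the driver of CsChrimson or of the nuclear tag nor the sex or age. Line and CsChrimson therefore cannot be told apart in this comparison. Per the labels' protocols, nuclei bearing a FLAG tag were precipitated from homogenised, crosslinked heads, and their polyadenylated RNA was captured on oligo-dT beads. Naive MB477 flies and naive flies without CsChrimson, activated MB477 flies with RNA interference (RNAi) against Kdm4B and activated flies of the line MB131, at 3 libraries each, were used to see where the same difference recurs. The question is which transcripts set the activated line apart from flies that saw the light without the channel.

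The labelled tissue, the mushroom body, is the centre of olfactory learning in the fly brain. Its intrinsic neurons, the Kenyon cells, release acetylcholine and the peptide sNPF, and dopamine acts on them through receptors that feed a cAMP cascade built around the adenylate cyclase rut. Neurons that fire induce activity-regulated genes such as kay (fly Fos), sr (fly Egr) and Hr38 (a nuclear receptor). Heat shock proteins are chaperones that cells induce under heat and other stress.

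The 6 libraries held 11972011, 12527321 and 14344348 counts in activated MB477 flies, against 11013826, 11467476 and 11322150 counts in activated flies without CsChrimson. Levels are given as CPM, read counts scaled by TMM to a common library total. A principal component analysis of the 6 libraries, on log2 CPM, gave a first axis with 62.4% of the variance, on which MB477 lay at -35.7 to -32.6 and the flies without CsChrimson at 32.8 to 34.8. Replicates differed from each other by more than counting noise, with a chi-square per degree of freedom of 3.0 to 3.99 within groups, against 71.9 to 92.0 between groups. Whether the 3 replicates of a group are different batches of flies is not stated, so every p-value covers library-to-library spread alone, possibly only technical spread. The 3 naive MB477 libraries stand apart from all others and enter every naive and interaction value given here. Reads of Cyp4p2, Hsp68, inaD, lncRNA:roX1 and w, beside the loci marked where they are described, are uncertain, since each overlaps a gene on the opposite strand.

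In activated MB477 flies 2313 genes were higher and 2293 lower than in activated flies without CsChrimson, which is 40.2% of the genes tested (edgeR adjusted p under 0.05). Each direction held about as many genes, 20.2% higher and 20.0% lower, and the median log2 fold change of all genes was 0.0031. Most of these differences were small: the median absolute log2 fold change among genes that passed was 0.47, and 865 genes (7.55%) passed with more than a 2-fold difference, 443 higher and 422 lower. The CPM of the 3 libraries of each group did not overlap for 5678 genes (49.6%). Beyond 4-fold there were 109 higher and 162 lower genes. The authors' deposited table of the same comparison listed 4189 genes with q under 0.05, of which 2085 had a positive and 2104 a negative log2 value. The 4124 genes past both thresholds had the same sign in the authors' deposited table and here.

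Among genes at 5 CPM or more in one group, the largest difference in each direction was in a gene nearly absent from the other group. Ir92a, which encodes an ionotropic receptor of olfactory neurons (3R, 20338973 to 20343902 on dm6, as all positions here), stood at 8.80, 6.73 and 6.76 CPM in activated MB477 flies, against 0, 0.0866 and 0 CPM in activated flies without CsChrimson. These are 275 counts against 1, a ratio of 251 with a counting interval from 44.7 to 9952. CG12688 had 201 counts against 2, a ratio of 91.8 with an interval from 25.1 to 763. In the opposite direction mthl8, a gene of the methuselah-like receptor family (3L, 22428 to 26308), had no count in the 3 activated MB477 libraries and 83.3, 82.6 and 85.0 CPM without CsChrimson. With the floor set at 3 counts over the group, mthl8 was at least 1040-fold lower in MB477.

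In all, 7 genes that averaged at least 5 CPM in MB477 averaged under 0.5 CPM without CsChrimson, and 6 genes did the reverse. The first set held Ir92a, CG12688, the sodium channel gene ppk20, CG14329, the odorant receptor gene Or65c and the cytochrome P450 entries Cyp316a1 and Cyp6a15Psi. The second held mthl8, the peroxidase gene Pxd, CG15459, CG34324 and the overlapping pair CG13044 and asRNA:CR45890. The pair lies on opposite strands and its reads cannot be told apart where counting did not use strand, which the sources used here do not give. Among naive flies 6 of the first 7 and all 6 of the second passed the test in the same direction. The next largest decreases after mthl8, in CG5172 (68.7-fold) and CG13043 (61.6-fold), fell outside the second set.

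Other genes with large differences were well expressed in one group. Cyp4p2, a cytochrome P450 gene (2R, 9237512 to 9239831), had 101, 101 and 94.8 CPM in activated MB477 flies, against 6.50, 7.53 and 4.03 CPM without CsChrimson (log2 fold change 4.04 ± 0.12 SE, edgeR adjusted p = 8.97e-50). The pigmentation gene y (yellow) stood at 12.6, 10.4 and 9.88 CPM in MB477, against 0.542, 0.520 and 1.05 CPM without CsChrimson. Both genes are clearly separated between the groups, with no library near the other group. Lip1, a lipase gene, had 1.57, 1.16 and 0.945 CPM in MB477, against 38.3, 31.4 and 30.2 CPM (log2 fold change -4.77 ± 0.27). The atypical myosin gene dachs of the Fat signalling pathway had 2.79, 3.07 and 2.33 CPM in MB477, against 40.4, 43.6 and 50.0 CPM (log2 fold change -4.03 ± 0.18). These lower genes were low in every MB477 library, though above 0.5 CPM, and moderately expressed in every library without CsChrimson.

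**Figure D1:**
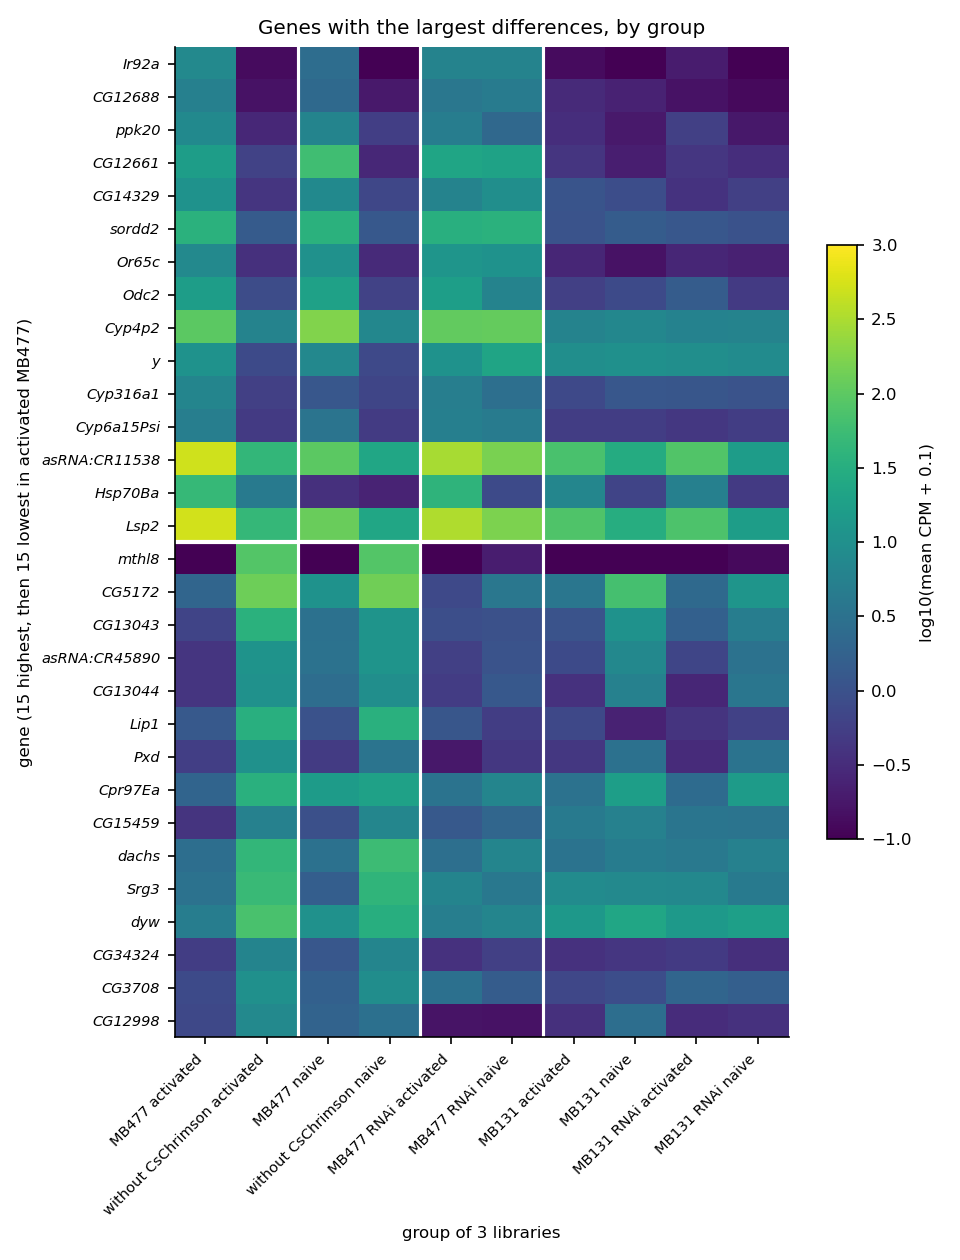
Mean level, as log10(mean CPM + 0.1), of the 15 most increased and the 15 most decreased genes of activated MB477 flies (rows), in the 10 groups of 3 libraries (columns). The upper block is bright in the activated MB477 columns and mostly darker in the MB131 columns, with Lsp2, asRNA:CR11538 and y among the genes still visible there; in the lower block mthl8, Lip1 and dachs are brightest in the columns without CsChrimson.

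The heat map of mean levels by group shows where these levels recur. Of the genes high in MB477, Cyp4p2 was at 6.44, 6.50 and 5.07 CPM in activated MB131 flies, a level overlapping that of the flies without CsChrimson, and it differed between activated MB477 and activated MB131 (log2 fold change 4.05, edgeR adjusted p = 1.14e-49). The same holds for Ir92a, with 0, 0.0916 and 0 CPM in activated MB131. The gene y differs from these: it stood at 8.90, 11.5 and 7.61 CPM in activated MB131, and its log2 difference between MB477 and MB131 was 0.23 (edgeR adjusted p = 0.457). Of the low genes, mthl8 had no count in activated MB131 either. Lip1 and dachs were also low in activated MB131, with log2 fold changes of -5.64 and -3.81 against the flies without CsChrimson, which serve as the same control in both comparisons.

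Markers of cell types showed that the libraries hold RNA from more than the labelled mushroom body, and that the mixture of markers differs between the groups. The 22 Kenyon cell markers tested summed to 7275 to 7760 CPM in activated MB477 libraries, against 11924 to 12305 CPM without CsChrimson. Muscle markers, 25 genes tested, summed to 13092 to 13205 CPM in MB477, against 6862 to 7185 CPM. Fat body markers, 11 genes tested, summed to 8884 to 9437 CPM in MB477, against 3838 to 4356 CPM. The ranges of the groups do not overlap for any of these lists. Photoreceptor markers were abundant in both groups, with sums of 29076 to 29208 CPM in MB477, against 33352 to 33837 CPM. Of the fat body list Fbp1, Lsp1alpha and Lsp1gamma were too low to test and Pepck1 had no count. In such bulk libraries fewer cells of a type and less RNA per cell cannot be told apart, and the part of these marker differences in the gene groups described next was not tested.

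Of the cell type markers, muscle and fat body transcripts were most uniformly higher in MB477. Of 25 muscle genes 24 passed as higher and none as lower, against 20.2% of all genes passing as higher. Their median log2 fold change was 0.87. Mhc, the myosin heavy chain, had 2449, 2453 and 2423 CPM in activated MB477 flies, against 1145, 1077 and 1099.6 CPM without CsChrimson (log2 fold change 1.14 ± 0.04, edgeR adjusted p = 6.42e-46). The MB477 libraries differed from each other by far less than from the other group. The muscle actin Act79B had a log2 fold change of 1.54 ± 0.08 and the giant elastic protein gene bt (projectin) 1.20 ± 0.05. Act88F, the flight muscle actin, was the one that did not pass (0.33 ± 0.20).

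Of 11 fat body genes 10 passed as higher and none as lower (median log2 fold change 1.09), against 20.2% of all genes passing as higher. The fat body is the fly counterpart of liver and adipose tissue, and its storage protein gene Lsp2 showed the largest difference, with 539, 536 and 529 CPM in activated MB477 flies, against 52.8, 41.3 and 45.4 CPM without CsChrimson. Its log2 fold change was 3.52 ± 0.07, but asRNA:CR11538 overlaps it on the opposite strand at nearly the same level (521, 542 and 506 CPM in MB477, against 47.0, 38.6 and 47.3 CPM), so the reads of this locus cannot be assigned to one strand. Lsp1beta, another storage protein gene, was at 127, 124 and 119 CPM in MB477, against 21.7, 16.7 and 16.0 CPM (2.77 ± 0.12). The lipoprotein gene apolpp (1.12 ± 0.04) and the iron carrier Tsf1 (1.15 ± 0.04) were higher by about the list's median. Fbp2, averaging under 0.5 CPM in both groups, did not pass. Hemocyte genes, markers of fly blood cells, passed as higher in 7 of 11 and as lower in 1, Pxn, with a median of 0.28. These are 63.6% and 9.09%, against 20.2% and 20.0% of all genes. Hml, a clotting protein, was at 1.0 ± 0.14 and the phagocytosis receptor NimC1 at 1.31 ± 0.34.

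The yolk protein genes, which fat body and ovary express in females, were among the most abundant transcripts that differed. Yp3 stood at 14295, 14594 and 14162 CPM in activated MB477 flies, against 3920.3, 3569 and 3405 CPM without CsChrimson (log2 fold change 1.98 ± 0.05, edgeR adjusted p = 2.58e-24). Yp1 (1.81 ± 0.05) and Yp2 (1.71 ± 0.07) were higher too. For all 3 genes every MB477 library lay far above every library without CsChrimson. Yp3 was also above these controls in activated MB131 flies (7233, 7482 and 7670 CPM) and in activated MB477 flies with Kdm4B RNAi (11619, 11394 and 11553 CPM). In naive flies it stood at 6878, 6782 and 6463 CPM in MB477, against 3752, 4665 and 4062 CPM without CsChrimson. The noncoding RNA lncRNA:roX1, which guides dosage compensation of the male X chromosome, had 2510.2, 2371 and 2653 CPM in MB477, against 5133, 5211 and 5126 CPM (-1.04 ± 0.04). Its partner lncRNA:roX2 was lower by less (-0.36 ± 0.08). In the list of 15 sex and dosage genes 4 passed as higher, the 3 yolk protein genes and tra, and 6 as lower (median 0.046). These are 26.7% and 40%, against 20.2% and 20.0% of all genes, so the share passing as higher is near that of all genes. With relative log expression size factors 3 passed as higher. A difference in the share of female flies between the groups was not tested.

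Heat shock and chaperone genes were higher in MB477 almost throughout, although both groups had been through the light protocol. Of 23 genes 22 passed as higher and none as lower, with a median log2 fold change of 0.63, against 20.2% of all genes passing as higher. The small chaperone gene Hsp26 (3L, 9376418 to 9377427) had 1085, 1086 and 1089 CPM in activated MB477 flies, against 355, 338 and 325 CPM without CsChrimson. The 3 MB477 libraries were nearly identical, and the difference was 3.20-fold (log2 fold change 1.68 ± 0.05, edgeR adjusted p = 5.23e-54). The Hsp70 family gene Hsp68 had 1713, 1734 and 1678 CPM in MB477, against 486, 481 and 479 CPM (1.82 ± 0.09), and the small heat shock gene Hsp27 followed with 1.79 ± 0.07. Hsp70Ba had 44.9, 52.0 and 46.8 CPM, against 3.25, 4.42 and 4.73 CPM, but the Hsp70 copies are nearly identical in sequence and their counts may be split arbitrarily. The summed level of the list was 19177 to 19410 CPM in MB477, against 12391 to 12490 CPM, with Hsp83, the fly Hsp90 gene, contributing most (0.47 ± 0.03). Hsf, the transcription factor that induces these genes, did not pass (-0.10 ± 0.06).

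For Hsp26 a difference was also present without activation. In naive MB477 flies Hsp26 stood at 35.3, 46.1 and 36.2 CPM, against 11.1, 10.6 and 11.9 CPM in naive flies without CsChrimson, a log2 fold change of 1.81 ± 0.09. The interaction, which is the activated-minus-naive change in MB477 minus that in the flies without CsChrimson, was -0.13 ± 0.10 on the log2 scale for Hsp26 and did not pass (edgeR adjusted p = 0.289). Over the list of 23, 15 genes were higher and 3 lower in naive MB477 than in naive flies without CsChrimson, where 29.0% of all genes passed as higher and 32.1% as lower. The interaction did pass for other members: 11 of the 23 had a more positive response in MB477 and 3 a more negative one (median 0.25 on the log2 scale), against 26.6% and 20.2% of all genes.

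Activity-regulated genes passed more often as higher than as lower. Of 15 genes tested 8 passed as higher and 3 as lower in activated MB477 flies, with a median log2 fold change of 0.21. These are 53.3% and 20%, against 20.2% and 20.0% of all genes, so the share passing as lower is that of all genes. The transcription factor gene kay (3R, 29765995 to 29794113) had 308, 327 and 314 CPM in MB477, against 189, 174 and 171 CPM without CsChrimson (0.83 ± 0.05, edgeR adjusted p = 2.31e-28). The leucine-rich repeat receptor gene kek2 had 263, 265 and 267 CPM in MB477, against 174, 151 and 157 CPM (0.72 ± 0.06). For both, the groups are well apart. Hr38 was close to the limit, with 19.0, 20.8 and 21.5 CPM in MB477, against 17.0, 14.5 and 15.8 CPM (0.38 ± 0.14, edgeR adjusted p = 0.0263); leaving out any of 4 of the 6 libraries ended the call, with adjusted p of 0.0584 to 0.112. The Jun gene Jra was as fragile (0.21 ± 0.08), with adjusted p of 0.0574 to 0.178 without any of 4 libraries. The groups overlapped for sr, with 17.1, 13.5 and 18.0 CPM in MB477, against 18.3, 19.4 and 14.6 CPM (-0.11 ± 0.15, edgeR adjusted p = 0.608).

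Arc1, which encodes a capsid-forming protein that carries RNA between neurons and muscle, went the other way. It had 105, 98.2 and 95.9 CPM in activated MB477 flies, against 299, 316 and 311 CPM without CsChrimson (-1.63 ± 0.05, edgeR adjusted p = 7.42e-48). Its naive levels were 194, 186 and 177 CPM in MB477, against 409, 395 and 385 CPM without CsChrimson. The phosphatase gene Mkp3 (-0.63 ± 0.06) and CG17778 (-0.27 ± 0.10) were the other members that passed as lower. Of 12 genes of the JNK stress kinase pathway 2 passed as higher, kay and Jra, and 3 as lower, the kinase genes bsk (-0.37 ± 0.07) and hep (-0.25 ± 0.05) and the protease gene Mmp1 (-0.16 ± 0.07), with a median of -0.061. These shares, 16.7% and 25%, lie near the 20.2% and 20.0% of all genes. Both kay and Jra were already described with the activity-regulated genes.

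Genes of the Kenyon cells were lower in MB477. Of 22 markers 21 passed as lower and none as higher, against 20.0% of all genes passing as lower, and the median log2 fold change was -0.71. The peptide gene sNPF (2L, 20027915 to 20056373) had 261, 246 and 246 CPM in activated MB477 flies, against 555, 549 and 575 CPM without CsChrimson (-1.16 ± 0.04, edgeR adjusted p = 1.46e-42). The vesicular transporter gene prt (portabella) had 45.8, 48.7 and 42.8 CPM in MB477, against 139, 152 and 161 CPM (-1.72 ± 0.07). In both genes every MB477 library lay far below every library without CsChrimson. The dopamine receptor gene Dop1R2 (-1.18 ± 0.06), the transcription factor gene dac (-1.16 ± 0.07) and rut (-0.84 ± 0.08) were lower as well. The one marker that did not pass was rn (-0.11 ± 0.10).

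**Figure D2:**
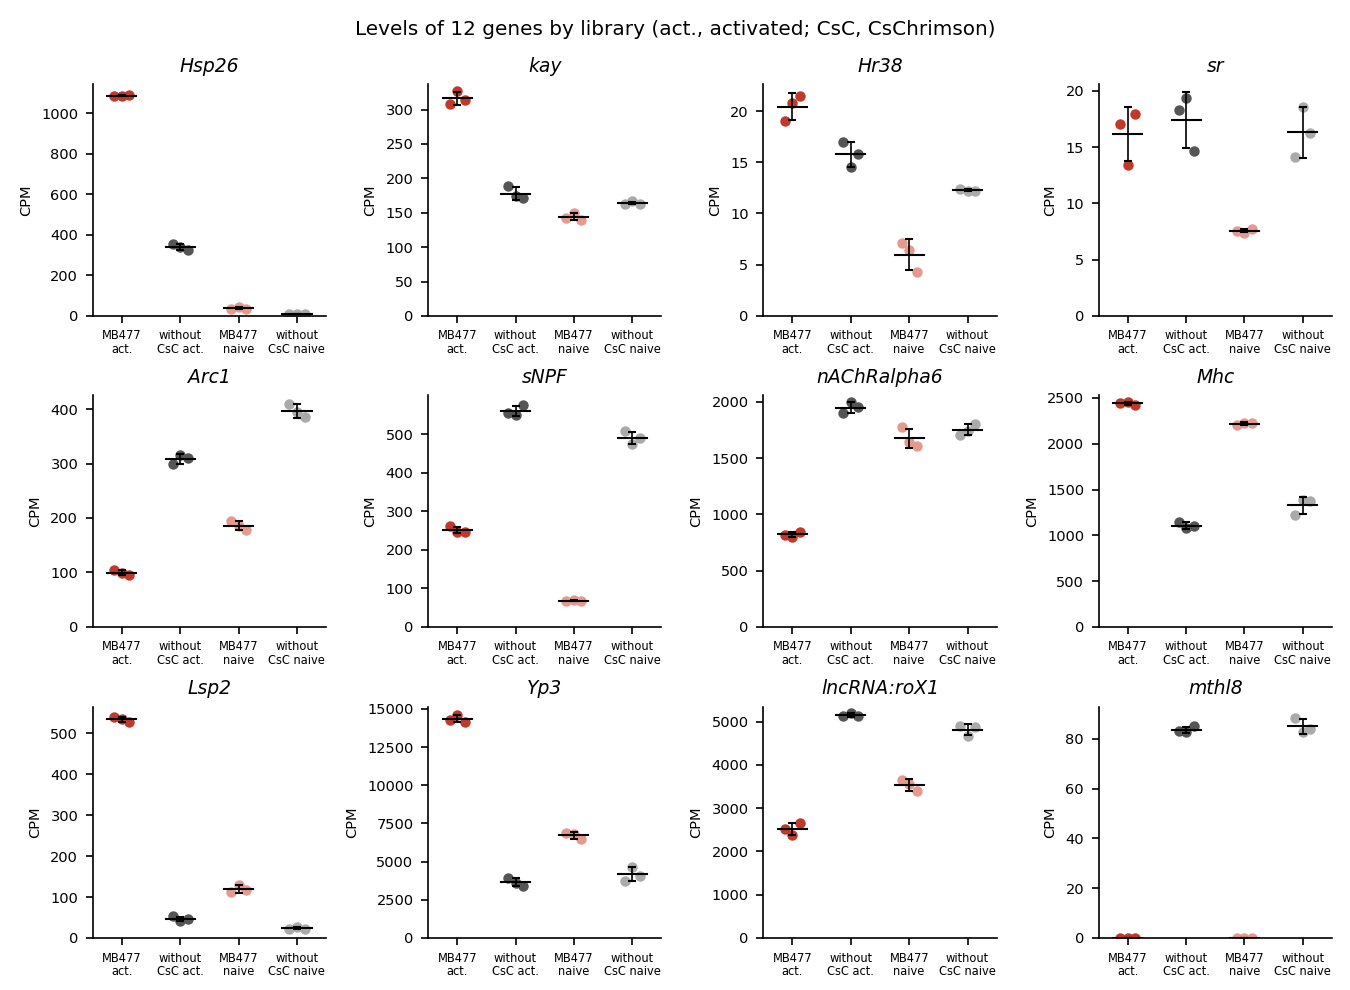
CPM (vertical axes, from 0) of 12 genes in each library, for activated MB477, activated without CsChrimson, naive MB477 and naive without CsChrimson, with the mean and SD over 3 libraries as lines and bars. The activated groups are separate for 11 of the genes and overlap for sr; sNPF is lowest in naive MB477 libraries, and mthl8 is at 0 in both MB477 groups.

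Broad neuronal genes were lower to a smaller extent, and not all were. Of 13 general neuron markers 7 passed as lower and 1, Syn, as higher (53.8% and 7.69%, median -0.13), against 20.0% and 20.2% of all genes. Appl, the fly amyloid precursor protein gene, had 959, 959 and 984 CPM in activated MB477 flies, against 1552, 1565 and 1588 CPM without CsChrimson (-0.70 ± 0.04). The sodium channel gene para (-0.40 ± 0.04) and the RNA-binding protein gene fne (-0.50 ± 0.04) were lower, whereas elav, the standard marker of neuronal identity, did not pass (0.02 ± 0.05). Genes of presynaptic release passed as lower in 9 of 22 and as higher in 2, Syn and the calcium sensor gene Frq2 (0.40 ± 0.08), with a median of -0.092. These are 40.9% and 9.09%, beside the same shares of all genes. The fusion protein gene Syx1A (-0.51 ± 0.06) and Rbp of the active zone (-0.51 ± 0.05) were the lowest.

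Among transmitter systems the cholinergic one was lower most uniformly. Of 14 genes 12 passed as lower and none as higher (median -0.41), against 20.0% of all genes passing as lower. The nicotinic receptor subunit gene nAChRalpha6 had 820.2, 804 and 845 CPM in activated MB477 flies, against 1903, 1996 and 1952 CPM without CsChrimson (-1.25 ± 0.04, edgeR adjusted p = 6.93e-50). The subunit genes nAChRalpha5 (-0.74 ± 0.05), nAChRalpha2 (-0.63 ± 0.07) and nAChRbeta2 (-0.58 ± 0.06) followed. ChAT, which makes acetylcholine, was lower by less (-0.34 ± 0.06), and nAChRalpha3 (-0.07 ± 0.08) and nAChRbeta3 (0.30 ± 0.24) did not pass.

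Biogenic amine genes passed as lower in 14 of 25 and as higher in 3 (56% and 12%, median -0.25), against 20.0% and 20.2% of all genes. Receptors were lower: beside Dop1R2, the octopamine receptor gene Oamb (-0.86 ± 0.06) and the serotonin receptor gene 5-HT1A (-0.74 ± 0.07), and the dopamine transporter gene DAT (-0.82 ± 0.09). The 3 higher genes were Vmat (0.21 ± 0.05), ple (0.23 ± 0.05) and Tbh (0.41 ± 0.11), which load amines into vesicles or make them. Genes of GABA and glutamate signalling were divided, 8 higher and 9 lower of 22 (36.4% and 40.9%, median -0.10), against 20.2% and 20.0% of all genes. Rdl, the main GABA-gated chloride channel gene, had 1029.6, 993 and 1111 CPM in MB477, against 2015, 2099 and 2087 CPM (-0.98 ± 0.04). The higher ones included glutamate receptor subunit genes of the neuromuscular junction, GluRIIC (2.03 ± 0.30) and GluRIID (1.48 ± 0.33), at 5.32 to 8.50 CPM in MB477.

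Ion channel genes passed as lower in 18 of 31 and as higher in 3 (58.1% and 9.68%, median -0.22), against 20.0% and 20.2% of all genes. The channel partner unc80 (-0.66 ± 0.04) and the potassium channel gene Task7 (-0.69 ± 0.11) were the lowest, and the potassium leak channel genes Ork1 (1.0 ± 0.05) and sand (0.73 ± 0.20) and the calcium channel gene Ca-alpha1T (0.12 ± 0.05) were higher. Of 25 genes of cAMP signalling and memory 14 passed as lower and 3 as higher (56% and 12%, median -0.15), beside the same shares of all genes. Calmodulin (Cam) had a log2 fold change of -0.58 ± 0.04 and the protein kinase A subunit gene Pka-R2 -0.67 ± 0.05, while CanA1, a calcineurin subunit gene, was higher (1.33 ± 0.20), as were CaMKI (0.21 ± 0.04) and Ac76E (0.41 ± 0.06). Neuropeptide genes passed as lower in 11 of 30 and as higher in 4, with a median of -0.014 beside 0.0031 for all genes. These are 36.7% and 13.3%, again beside 20.0% and 20.2% of all genes. After sNPF, the lowest were SIFa (-0.79 ± 0.18) and the insulin-like peptide gene Ilp2 (-0.78 ± 0.17). The 4 higher ones were Nplp1, AstA, CCHa2 and Proc, at 0.18 to 0.50.

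**Figure D3:**
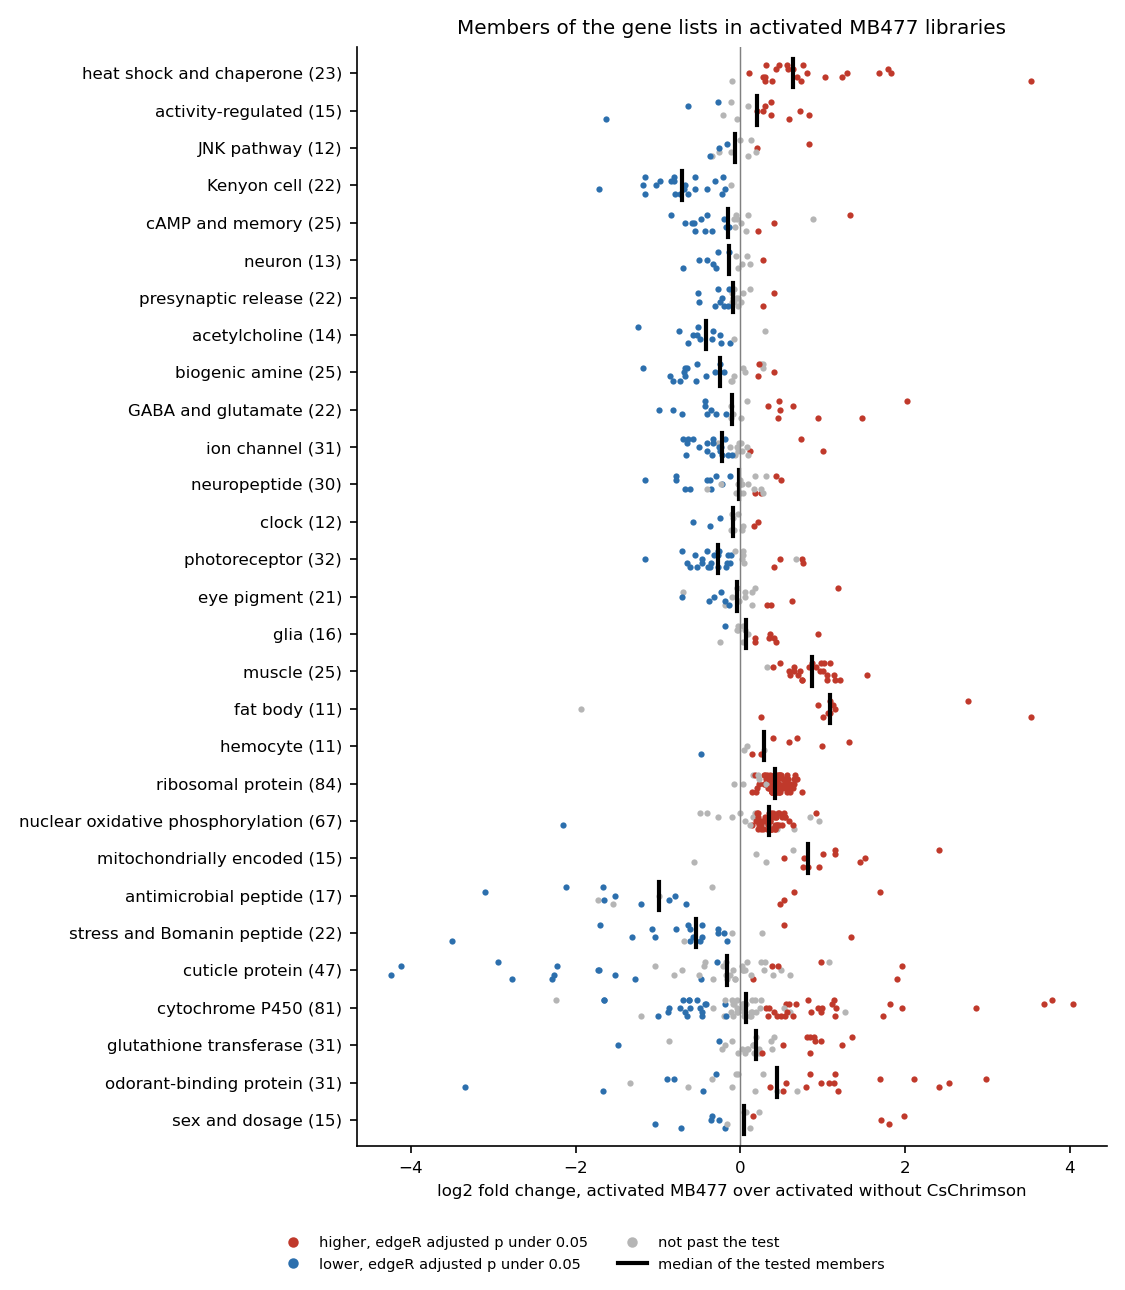
Log2 fold change of activated MB477 over activated without CsChrimson (horizontal axis) for each tested member of 29 gene lists (rows, number of genes in brackets), coloured by whether the edgeR test was passed; the black bar is the list's median. Kenyon cell genes lie left of 0 and muscle, ribosomal protein and heat shock genes right of it, while cytochrome P450 and cuticle genes spread to both sides.

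Photoreceptor genes were mostly a little lower. Of 32 genes 22 passed as lower and 4 as higher (68.8% and 12.5%, median -0.27), against 20.0% and 20.2% of all genes. The scaffold gene inaD, which holds the phototransduction proteins together, had 261, 266 and 269 CPM in activated MB477 flies, against 582, 579 and 621 CPM without CsChrimson (-1.16 ± 0.04). The main rhodopsin gene ninaE was lower too, with a log2 fold change of -0.15 ± 0.03. The channel gene trpl was higher, with 1036, 1048 and 1064 CPM in MB477, against 634, 626 and 605 CPM (0.75 ± 0.04), and so were the opsin genes Rh7 (0.75 ± 0.17), Rh2 (0.48 ± 0.09) and Rh5 (0.41 ± 0.05). Eye pigment genes showed no common direction, with 4 higher and 6 lower of 21 (median -0.037). These are 19% and 28.6%, against 20.2% and 20.0% of all genes. The pigment gene v (vermilion) was at 1.19 ± 0.11 and w (white), often carried on transgenes, at 101, 91.7 and 103 CPM in MB477, against 69.9, 69.3 and 88.8 CPM (0.38 ± 0.06). Of 4 lens and cornea genes Crys (1.18 ± 0.06) and Cpr72Ec (1.97 ± 0.05) passed as higher and retinin as lower (-0.60 ± 0.04).

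Glial genes passed as higher in 7 of 16 and as lower in 1, e (ebony), with a median of 0.070. These are 43.8% and 6.25%, against 20.2% and 20.0% of all genes. The glutamate transporter gene Eaat1 had 756, 795 and 752 CPM in activated MB477 flies, against 436, 382 and 382 CPM without CsChrimson (0.94 ± 0.04), whereas repo, the transcription factor that marks nearly all glia, did not pass (0.05 ± 0.08). The core clock genes Clk, cyc, per and tim did not pass, and of 12 clock genes 2 passed as higher, vri and cry (0.22 ± 0.05), and 3 as lower, nmo (-0.57 ± 0.05), jet and cwo (-0.25 ± 0.05), with a median of -0.087. The clock shares, 16.7% and 25%, lie near the 20.2% and 20.0% of all genes. With relative log expression size factors 5 clock genes passed as lower, and jet did not pass without replicate 2 of MB477 (edgeR adjusted p = 0.251) or without replicate 2 of the flies without CsChrimson (edgeR adjusted p = 0.139). Of 13 histone demethylase genes only NO66 passed (0.40 ± 0.15), and not without any of 4 single libraries. Kdm4B, the demethylase the study is about, stood at 1.13, 0.415 and 1.89 CPM in MB477, against 0.722, 1.04 and 0.175 CPM (0.83 ± 0.63, edgeR adjusted p = 0.311), and a difference was not detectable at this depth.

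Genes of protein synthesis and respiration were higher in MB477. Their counts stand beside 20.2% of all genes passing as higher and 20.0% as lower. Of 84 cytoplasmic ribosomal protein genes 78 passed as higher and none as lower (median 0.42), led by RpL23A, with 1138, 1168 and 1129 CPM in activated MB477 flies, against 718, 679 and 652 CPM without CsChrimson (0.75 ± 0.04). Of 67 nuclear genes of oxidative phosphorylation 52 passed as higher and 1 as lower (median 0.35), with the complex III subunit gene UQCR-Q at 0.64 ± 0.06 and ATPsynO at 0.59 ± 0.05. The lower one was ND-49L (-2.16 ± 0.39), at 0.784 to 0.872 CPM in MB477. Transcripts encoded in the mitochondrion passed as higher in 11 of 15 and as lower in none (median 0.83). The cytochrome oxidase gene mt:CoI had 3274, 3501 and 3326 CPM in MB477, against 1276, 1208 and 1196 CPM (1.46 ± 0.07). These lists moved in the direction of the muscle and fat body markers, whose part in them was not tested.

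Genes of the immune and stress response were mostly lower in activated MB477 flies. Antimicrobial peptide genes passed as lower in 9 of 17 and as higher in 4, with a median of -0.99. These are 52.9% and 23.5%, against 20.0% and 20.2% of all genes. Drsl5, of the drosomycin family, had 36.8, 33.7 and 36.7 CPM in activated MB477 flies, against 141, 159 and 163 CPM without CsChrimson (-2.11 ± 0.07, edgeR adjusted p = 1.91e-48). The defensin gene Def was higher (1.70 ± 0.24), as were AttB, Drsl4 and Listericin. Among the Turandot stress peptides and the Bomanins and related immune peptides, 17 of 22 passed as lower and 2, BomS6 and IM33, as higher (77.3% and 9.09%, median -0.53). TotM stood at 2.61, 2.66 and 2.04 CPM in MB477, against 32.5, 24.9 and 25.5 CPM (-3.51 ± 0.21), and TotC was at -1.70 ± 0.14. IM33 had 215, 215 and 212 CPM in MB477, against 92.1, 82.7 and 77.9 CPM (1.35 ± 0.06).

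Cuticle protein genes spread widely around a median of -0.16, with 6 of 47 higher and 13 lower. These are 12.8% and 27.7%, against 20.2% and 20.0% of all genes. Cpr97Ea had 2.26, 1.49 and 1.74 CPM in activated MB477 flies, against 30.3, 38.1 and 35.8 CPM without CsChrimson (-4.24 ± 0.21, edgeR adjusted p = 4.94e-34), and Cpr62Bc had 6.97, 4.82 and 5.01 CPM, against 50.5, 44.1 and 33.6 CPM. In naive flies Cpr97Ea was at 16.3, 17.5 and 12.5 CPM in MB477, against 18.6, 19.4 and 20.9 CPM, which did not pass (edgeR adjusted p = 0.0719). The difference between the activation responses, -3.90 ± 0.27 on the log2 scale, did pass (edgeR adjusted p = 2.20e-23), with the naive MB477 libraries that stand apart in it. The cuticle genes Cpr72Ec and Cpr47Ee were higher.

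The same difference between the groups was then taken in naive flies, which share no library with the activated ones. There 3320 genes were higher and 3674 lower in MB477 than without CsChrimson (29.0% and 32.1%, in all 61.0% of genes tested), in a comparison that includes the 3 libraries that stand apart. Of the 4606 genes that passed in activated flies, 2647 passed in the same direction in naive flies, which is 57.5% of the activated and 37.9% of the naive calls. Another 824 passed in the opposite direction, and 1135 did not pass in naive flies. For genes past 2-fold the shares were 543 of 865 in the same direction, 59 in the opposite direction and 263 not passing. The interaction passed for 46.7% of all genes, with a more positive value in MB477 for 26.6%, and did not pass for 1316 of the 2647 genes. Across all genes, which are not independent replicates, the log2 fold changes had a Pearson correlation of 0.452.

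**Figure D4:**
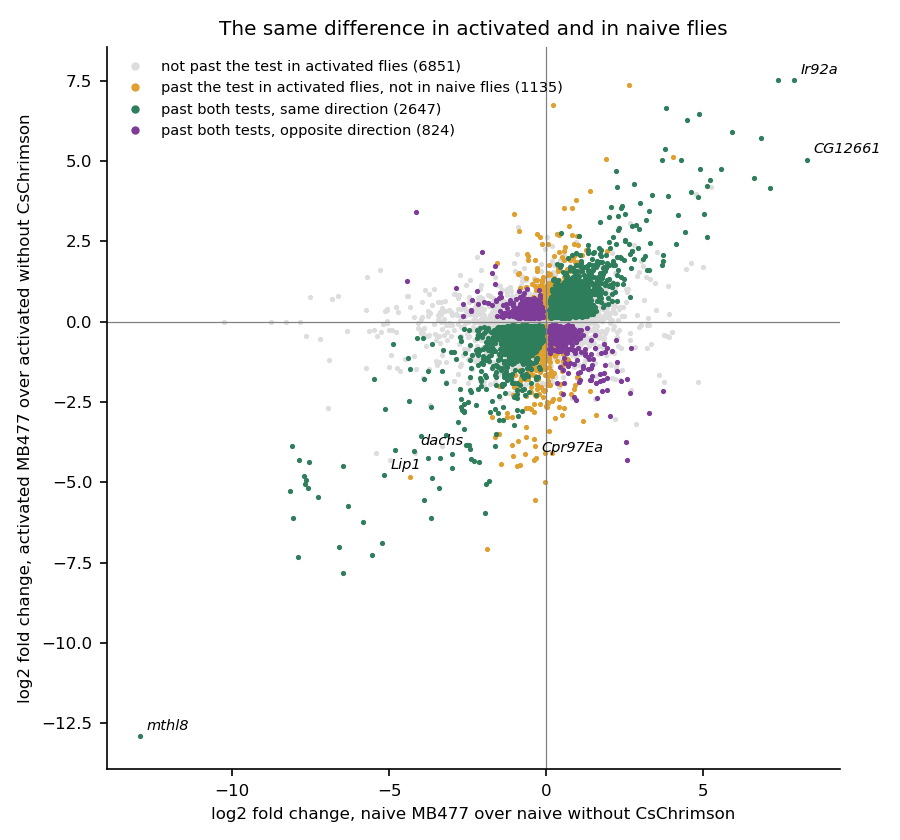
Log2 fold change of MB477 over the flies without CsChrimson for 11457 genes, in naive flies (horizontal) and in activated flies (vertical); colours give the tests passed. The 2647 genes past both tests in the same direction fill the lower left and upper right of the plot, and 824 lie in the other corners; for genes with no count in a group, such as mthl8, the plotted value depends on the fit's prior count.

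By gene group, the naive difference went the same way as the activated one for muscle, fat body, ribosomal protein and nuclear respiratory genes, and was mixed or opposite for several others. In naive flies 25 of 25 muscle genes, 9 of 11 fat body genes, 83 of 84 ribosomal protein genes and 58 of 67 nuclear oxidative phosphorylation genes were higher in MB477. Of all genes 29.0% passed as higher and 32.1% as lower there. Kenyon cell genes were lower in 15 of 22 and higher in 6, with sNPF at 66.7, 69.1 and 67.3 CPM in naive MB477, against 507, 475 and 489 CPM in naive flies without CsChrimson (-2.86 ± 0.05). Activity-regulated genes went the other way, with 10 of 15 lower and 2 higher. In naive flies kay was at 142, 150.2 and 140.1 CPM in MB477, against 163, 166 and 163 CPM (-0.19 ± 0.05, edgeR adjusted p = 0.00131). Stress and Bomanin peptide genes were 7 higher and 6 lower of 22. Antimicrobial peptide genes were 2 higher and 6 lower of 17 (median 0.072). Their summed level was 690 to 730 CPM in naive MB477, against 538 to 604 CPM in naive flies without CsChrimson. Mitochondrially encoded transcripts passed as higher in 6 of 15 and as lower in 2, and mt:CoI did not pass (0.06 ± 0.07). Their summed level was nevertheless 21488 to 21848 CPM in naive MB477, against 8296 to 9244 CPM in naive flies without CsChrimson. In activated flies it was 15885 to 16431 CPM, against 8955 to 9285 CPM.

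The other activated lines were set against the same 3 libraries without CsChrimson, so their differences share those libraries with the ones above. In activated MB477 flies with Kdm4B RNAi 2117 genes (18.5%) were higher and 1946 (17.0%) lower, 35.5% in all. In activated MB131 flies 1111 (9.7%) were higher and 1073 (9.37%) lower, 19.1% in all. Heat shock genes passed as higher in 20 of 23 with RNAi and in 22 of 23 in MB131, with medians of 0.63 and 0.53. Muscle genes passed as higher in 22 of 25 with RNAi and in 23 of 25 in MB131, and Kenyon cell genes as lower in 19 of 22 and in 15 of 22. Antimicrobial peptide genes passed as lower in 7 of 17 with RNAi and in 11 of 17 in MB131. Stress and Bomanin peptide genes went the opposite way with RNAi, 10 of 22 higher and 4 lower (median 0.32). In MB131 1 of these 22 passed as higher and 16 as lower (median -0.54). For single genes, kay had log2 fold changes of 0.70 with RNAi and 0.40 in MB131, sNPF -0.63 and -0.33, and Arc1 -1.39 and -0.43. With RNAi kek2 was at -2.47 and w at 4.89, against 0.42 and 0.41 in MB131.

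Activated MB477 was also tested directly against activated MB131, in which 1655 genes (14.4%) were higher and 1699 (14.8%) lower in MB477, 29.3% in all. All 22 Kenyon cell genes were lower in MB477 than in MB131 (median -0.42), and 23 of 25 muscle and 9 of 11 fat body genes were higher. Lsp2 stood at 539, 536 and 529 CPM in MB477, against 70.1, 87.9 and 78.3 CPM in MB131. Heat shock genes were higher in 12 of 23 and lower in 2, with Hsp26 at 793, 778 and 799 CPM in MB131. Hr38 and sr did not pass between the lines (0.07 and -0.18 on the log2 scale), while kay was higher (0.43) and Arc1 lower (-1.20) in MB477.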

How the data were processed

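Raw read counts per gene were deposited by the authors for 30 libraries in 10 groups of 3. Per the submitters' processing notes STAR, HTSeq, DESeq2 and the build dm6 were used; versions, settings and strand handling are not given in the sources used. The authors' deposited table for this comparison holds p-values, q-values and log2 fold changes, used only where named. Groups were taken from the titles.

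Genes were kept with edgeR 4.0.16 filterByExpr (minimum count 10, minimum total 15), leaving 11457 genes. TMM factors and a robust quasi-likelihood F test were fitted over all 30 libraries in R 4.3.3 with 1 mean per group, and p-values were adjusted over all genes by Benjamini-Hochberg at 0.05. Library totals ran from 8291599 to 14344348 counts, and the typical biological coefficient of variation was 6.32%. A standard error is the log2 fold change divided by the root of F. Counting intervals and floors cover counting error only. Names and positions came from an Ensembl annotation of dm6, with 17253 identifiers matched and 306 not; 216 tested genes had no position.

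The members and lists were chosen with earlier results of these data known. Named genes are the 15 largest increases and 15 largest decreases past the test with separate groups and at least 5 CPM in the higher group, up to 4 members per list past the test with the largest change, and 10 genes always given (Hr38, sr, kay, Kdm4B, w, lncRNA:roX1, lncRNA:roX2, ninaE, sNPF and Hsp26). Other genes are named after their values were seen, as where few members of a list passed, went against it or did not pass. The test was checked on simulated counts with few genes changed and with the spread fitted here. That check does not cover a difference as broad as the one between these groups. Replicate numbers do not pair the groups, and alternatives included DESeq2 1.42.0.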

Additional observations from a re-analysis of the deposited data

Results flagged for a closer look

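The activation response, activated minus naive, was tested for a difference between MB477 and the flies without CsChrimson. The response was more positive in MB477 for 3042 genes and more negative for 2314 (46.7% of genes tested, edgeR adjusted p under 0.05). These tests use the 3 naive MB477 libraries, which lay at 64.2 to 68.0 on the first principal component of all 30 libraries (26.8% of variance), against -25.5 to 22.9 for the other 27. The part of that in these differences was not tested.

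Of the genes always given, activity-regulated ones had more positive responses in MB477: Hr38 by 1.4 ± 0.22 (SE), sr by 1.0 ± 0.23 and kay by 1.02 ± 0.07 on the log2 scale. In naive flies Hr38 stood at 7.17, 6.46 and 4.26 CPM in MB477, against 12.4, 12.2 and 12.2 CPM without CsChrimson. Naive sr stood at 7.56, 7.41 and 7.68 CPM in MB477, against 14.1, 18.6 and 16.3 CPM, while its activated levels overlapped. The lower naive levels of Hr38 and sr therefore enter these differences. Of the 15 activity-regulated genes 10 had a more positive response in MB477 and 4 a more negative one, against 26.6% and 20.2% of all genes. The response of sNPF differed by 1.70 ± 0.07 and that of ninaE by 0.67 ± 0.04. The differences were -0.51 ± 0.09 for w, -0.59 ± 0.05 for lncRNA:roX1 and -0.65 ± 0.11 for lncRNA:roX2.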

How the results depend on the processing

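The counts of higher and lower genes in all 6 comparisons stayed within 1.5 times under every alternative run. For activated MB477 against activated without CsChrimson they were 2242 and 2372 with relative log expression size factors, 2273 and 2235 with no filter on low counts (16175 genes), 2442 and 2357 with only the libraries compared, 2310 and 2302 without the 3 naive MB477 libraries, and 2257 and 2400 with DESeq2. Leaving out 1 library at a time gave 2061 to 2170 higher and 2036 to 2132 lower genes. Deviations of same-numbered libraries correlated at -0.011 to 0.023, so the numbers do not pair them; with a replicate block the counts were 2307 and 2285. No gene named by the rule reversed under any alternative. Besides Hr38, Jra and NO66, the calls lost without 1 library were those of Obp93a, CecA1, Lk, jet, mt:tRNA:Tyr-GTA, AttD and Cpr49Ah. With relative log expression factors 5 clock genes passed as lower rather than 3. Counts of 6 other lists moved by 1 in a direction, with 1 fewer higher for hemocyte, sex and dosage and ion channel genes and 1 more lower for ion channel, presynaptic, amine and cuticle genes. Genes near 1 CPM, such as Kdm4B, are limited by depth.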

Other observations

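Genes on the small chromosome 4, a set chosen after its values were seen, are described without a test of their difference from other genes. Of 101 genes tested there 12 passed as higher and 48 as lower (11.9% and 47.5%, median log2 fold change -0.17), while on 2L, 2R, 3L, 3R and X 17.1% to 22.3% passed as higher and 17.6% to 22.1% as lower. The eye and mushroom body regulator ey, the fly Pax6, had 223, 221 and 233 CPM in activated MB477 flies, against 441, 472 and 467 CPM without CsChrimson (-1.03 ± 0.05 SE). Its relative toy had 188, 177 and 195 CPM in MB477, against 294, 303 and 337 CPM (-0.74 ± 0.05). Both genes work in the mushroom body and are among the 22 Kenyon cell markers above, so their lower levels are not separate from that list's. The part of those markers in the values of this chromosome was not tested. In naive flies 12 genes of this chromosome were higher and 72 lower in MB477, where 29.0% and 32.1% of all genes passed. Genes that passed as lower were longer than those that passed as higher, with median gene lengths of 4434 bp and 2790 bp, against 2500 bp over all genes tested.

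Detoxification and chemosensory genes are set beside 20.2% of all genes passing as higher and 20.0% as lower. Of 81 cytochrome P450 genes 28 passed as higher and 20 as lower (34.6% and 24.7%, median 0.069), from Cyp4p2 at 4.04 to Cyp6w1 at -1.66 ± 0.04. Of 31 glutathione transferase genes 11 passed as higher and 2 as lower (35.5% and 6.45%, median 0.19), while the other 18 did not pass; the higher ones were led by GstE8 (1.35 ± 0.17) and GstE1 (1.24 ± 0.09), while GstD11 was lower (-1.49 ± 0.18). Of 31 odorant-binding protein genes 15 passed as higher and 6 as lower (48.4% and 19.4%, median 0.45). Obp99a had 115, 119 and 107 CPM in activated MB477 flies, against 17.6, 19.9 and 21.2 CPM without CsChrimson. Of 54 odorant, gustatory and ionotropic receptor genes 12 passed as higher and 6 as lower (22.2% and 11.1%, median -0.00034), shares near or below those of all genes.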
